A study of Mus musculus with 6 samples.

Results

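Skeletal muscle breaks down its contractile proteins largely through the ubiquitin-proteasome system, in which an E3 ligase selects the protein to be tagged and the proteasome degrades it. The RING-finger ligases of the MuRF family (Trim63, Trim55 and Trim54) sit on the sarcomere, whereas the F-box ligases atrogin-1 (Fbxo32), Fbxo30 and Fbxo40 bring substrates to a cullin complex. FoxO transcription factors, which Akt keeps out of the nucleus, are known to drive Trim63 and Fbxo32 in wasting muscle, so both genes are commonly used as a paired readout of atrophy.

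These 6 ligase genes were examined with 3 FoxO genes (Foxo1, Foxo3 and Foxo4) in quadriceps muscle of AR97Q mice, a model of spinal and bulbar muscular atrophy. The genes were chosen for their known roles and found on the array through the transcript accession of each probe, matched to RefSeq symbols, which gave 9 genes of 25005 tested. They carried 13 of the 56605 probes on the array, and all 13 passed the filter on dim probes. All mice of both groups were 9-week-old AR97Q transgenic males on a C57BL/6J background, and no wild-type array was analysed here. The 3 mice of the exercise group had been trained on a forced running wheel (5 m/min, 5 sessions of 60 min per week) for 4 weeks from the age of 5 weeks, following acclimation. Tissue was collected the day after the last run, and the 3 mice of the sedentary group had not been trained. The comparison asks which of these genes differed in level between exercised and sedentary AR97Q muscle. Each mouse was measured on 1 array, so p-values measure the spread between 3 mice per group.

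Signal is given below as the log2 of the processed spot intensity minus the 75th percentile of its array, so that 0 means as bright as that percentile, and levels of different genes are not compared because probes differ in brightness. Before scaling, the 75th percentile was 250.5 to 257 intensity units with exercise and 310 to 384 without, and 54.6 to 59.9% of probes were well above background. The arrays of exercise mice 1 to 3 and of sedentary mouse 1 lay in 1 strip of the slide and those of sedentary mice 2 and 3 in the other, so strip and group are partly confounded. With strip as a block, a fit therefore sets the exercise arrays against that of sedentary mouse 1 alone. Calls lost in that fit do not show an effect of the strip. Of 8 muscle fibre marker genes, 8 were measured well above background on all arrays and 6 rose with exercise, and their summed level was 2591 to 2935 times the 75th percentile in the exercise group against 1233 to 1760 times in the sedentary group. Summed smooth muscle markers ranged from 61.5 to 62.3 in the exercise group and from 65.0 to 80.7 in the sedentary group, with 2 of 5 genes called lower. Satellite cell markers summed to 7.28 to 7.73 against 9.19 to 10.8, with 1 of 4 lower. Among 5 Schwann cell markers, 1 was called lower. Of 5 adipocyte markers, 4 had negative log2 fold changes, none of them called, and 1 (Lep) was called higher, and the median was -0.92. None of the endothelial, macrophage, fibroblast or red blood cell markers was called by limma, and 0 of them had an unadjusted p under 0.05. In whole muscle, fewer cells of a type and less RNA per cell cannot be told apart, and the part of these markers in the results below was not tested.

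Trim54 and Fbxo40 rose, Fbxo30 fell, and Trim63 lay above the sedentary values on every exercise array but just missed the threshold. Fbxo32 and the FoxO genes Foxo1 and Foxo3 had lower mean levels in the exercise group without passing the test. In numbers, 2 of the 9 genes were called higher and 1 lower at an adjusted p under 0.05 (limma, Benjamini-Hochberg over all genes tested), beside 11.5% of all genes called higher and 6.12% called lower, and the median log2 fold change of the 9 genes was -0.09 beside 0.03 for all genes. With 9 genes, these counts are near the shares over all genes, which also ran in both directions, so they set the 9 genes apart in neither direction. None changed by the log2 fold change of at least 1 that the study required in addition, a mark that 2.78% of all genes passed. By unadjusted p, limma put 6 of the 9 under 0.05, of which 3 were higher and 3 lower. The share of all genes under this unadjusted threshold was not taken, here or for the lists below. Fbxo32, which had the highest unadjusted p of the 6 (0.0435, limma), ranked only 8785 among all genes tested. Such values were therefore common, and without that share the count cannot say whether the 9 genes stand apart. With strip as a block, 0 of the 9 genes and 3 of all genes were called. Leaving out any single array other than that of sedentary mouse 1 left 0 of the 9 genes called, and without sedentary mouse 1 there were 3 higher and 1 lower.

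**Figure D1:**
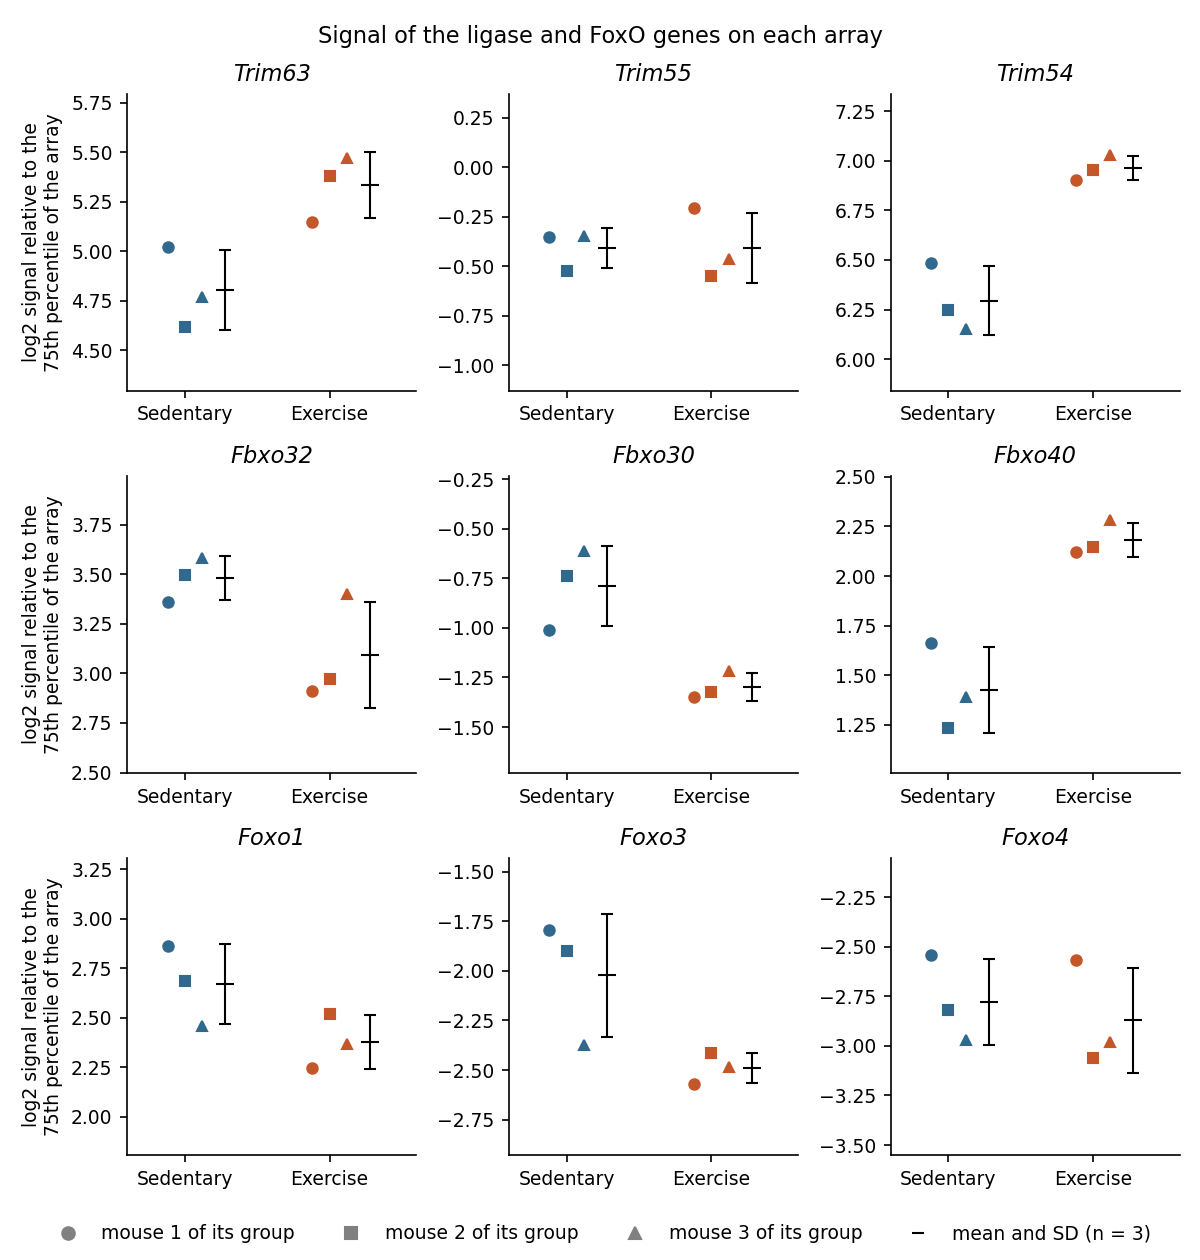
Log2 signal relative to the array's 75th percentile for the 9 genes on each of the 6 arrays, with the mean and SD of each group beside the points; every panel spans the same log2 range. Trim63, Trim54 and Fbxo40 show no overlap with exercise above sedentary, Fbxo30 and Foxo3 no overlap with exercise below, and the array of sedentary mouse 1 is the sedentary point nearest to exercise for Trim63, Trim54, Fbxo30 and Fbxo40.

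**Figure D2:**
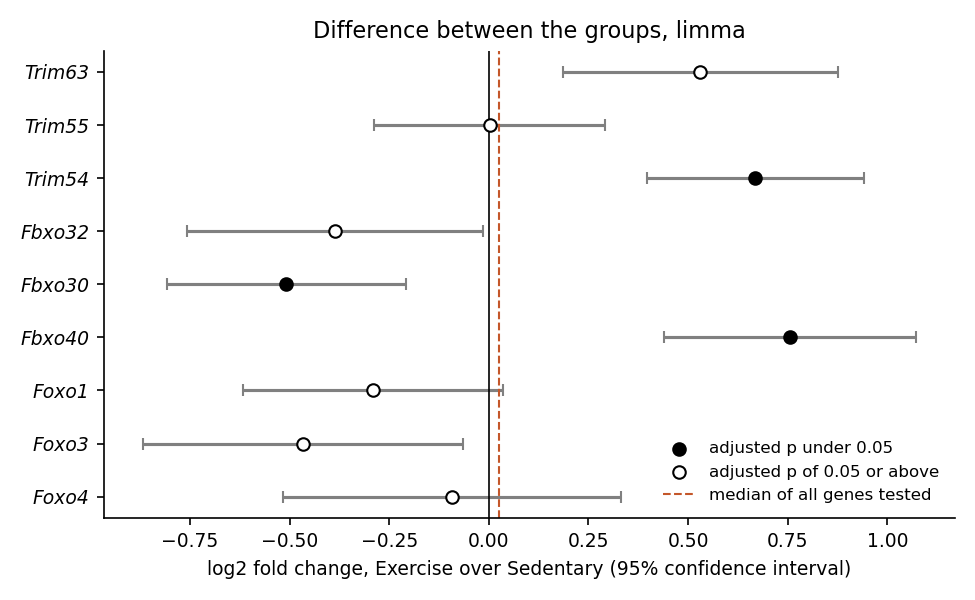
Log2 fold change of each gene, exercise over sedentary, with its 95% confidence interval from limma; filled points passed the adjusted threshold and the dashed line is the median of all genes tested. Trim54 (0.67) and Fbxo40 (0.76) are filled on the right and Fbxo30 (-0.51) on the left, while Trim63 (0.53) is open.

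The promoters of Trim63, Trim54 and Fbxo40, the genes with every exercise array above every sedentary array, are shown because FoxO factors bind a forkhead element and myogenin, a muscle regulator induced by denervation, binds an E-box. Each line gives the 250 bases before the transcription start from 5′ to 3′ (RefSeq, GRCm38.p6), with the forkhead letters TGTTTAC, searched on both strands, and the E-box letters CAGCTG, which read the same on both strands, in capitals. The positions are chr4:134314870-134315119 on the plus strand for Trim63 and chr5:31116362-31116611 on the plus strand for Trim54. For Fbxo40 on the minus strand, the RefSeq table has a window at chr16:36990468-36990717 and another at chr16:36979137-36979386.
Trim63: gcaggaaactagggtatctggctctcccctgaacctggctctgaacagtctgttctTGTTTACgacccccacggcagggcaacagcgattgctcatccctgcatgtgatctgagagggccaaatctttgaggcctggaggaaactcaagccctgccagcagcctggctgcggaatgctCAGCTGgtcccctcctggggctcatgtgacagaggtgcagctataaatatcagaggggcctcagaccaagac
Trim54: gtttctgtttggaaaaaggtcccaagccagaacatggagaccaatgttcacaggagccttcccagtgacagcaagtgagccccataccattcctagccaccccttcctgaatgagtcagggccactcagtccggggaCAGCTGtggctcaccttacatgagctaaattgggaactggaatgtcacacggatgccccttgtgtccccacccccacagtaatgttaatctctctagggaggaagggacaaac
Fbxo40, upstream start: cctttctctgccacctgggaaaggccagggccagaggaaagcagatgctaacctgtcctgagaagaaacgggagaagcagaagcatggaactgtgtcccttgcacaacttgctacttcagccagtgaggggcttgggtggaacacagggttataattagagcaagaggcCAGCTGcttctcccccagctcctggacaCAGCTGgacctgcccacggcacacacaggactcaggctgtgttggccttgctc
Fbxo40, downstream start: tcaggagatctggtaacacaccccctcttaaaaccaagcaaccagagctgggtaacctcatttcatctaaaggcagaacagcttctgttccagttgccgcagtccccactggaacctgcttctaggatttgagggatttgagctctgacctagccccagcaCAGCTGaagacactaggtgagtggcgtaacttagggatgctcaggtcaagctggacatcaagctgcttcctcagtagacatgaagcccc
The Trim63 window held TGTTTAC from base -194 to base -188 and CAGCTG from -72 to -67, counted from the transcription start. Trim54 held CAGCTG at -113 to -108, the upstream Fbxo40 start held it at -81 to -76 and at -53 to -48, and the downstream Fbxo40 start at -89 to -84. Promoter entries were matched for 6 of the 9 genes, in 7 windows, and there was none for Trim55, Fbxo32 and Foxo4. TGTTTAC was found in 1 of the 7 windows, that of Trim63. CAGCTG was found in 4, those of Trim63, Trim54 and both Fbxo40 starts, so Fbxo40 is counted more than once. Neither was found in the windows of Fbxo30, Foxo1 and Foxo3. Of all 32851 windows of 300 bases in the table, 3.65% held TGTTTAC and 16.3% held CAGCTG. A match describes the letters of the window and is not a measured binding site.

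Among the MuRF genes, Trim63 encodes MuRF1, the ligase that ubiquitinates thick filament proteins and creatine kinase. Its log2 signal was 5.15, 5.38 and 5.47 in exercise mice 1, 2 and 3 and 5.02, 4.62 and 4.77 in sedentary mice 1, 2 and 3. The groups did not overlap, although exercise mouse 1 and sedentary mouse 1 lay close together. Trim63 was 1.44-fold higher in the exercise group (log2 fold change 0.53, SE 0.14, 95% confidence interval 0.19 to 0.87), and the adjusted p of limma was 0.0506. A second Trim63 probe, matched to the same transcript, differed by the same log2 fold change of 0.53 (SE 0.14) and had an adjusted p of 0.0499 over all probes in limma. Against sedentary mouse 1 alone, whose array shared the strip, the exercise mean of the brighter probe was 0.31 higher. The direction of Trim63 depended on scaling, since the unscaled signal was 9122 to 11119 in the exercise group and 9109 to 10462 in the sedentary group, which overlap, and scaling on spike-in probes gave -0.02.

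Trim54 encodes MuRF3, a ligase that associates with microtubules and the sarcomere. It measured 6.91, 6.96 and 7.03 in the exercise mice and 6.49, 6.25 and 6.15 in the sedentary mice, so all exercise arrays were above all sedentary arrays and lay within 0.12 of each other. Trim54 rose 1.59-fold (log2 fold change 0.67, SE 0.11, adjusted p = 0.0239, limma), and it was 0.48 higher than sedentary mouse 1 alone. The groups did not overlap before scaling either, at 30798 to 32706 against 27259 to 28125 intensity units.

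Trim55 encodes MuRF2, which shares sarcomeric binding partners with MuRF1. Its log2 signal was -0.21, -0.55 and -0.46 with exercise and -0.35, -0.52 and -0.34 without, and the exercise values enclosed the sedentary ones. The mean log2 difference was 0.00 (SE 0.12, 95% confidence interval -0.29 to 0.29, adjusted p = 0.992, limma), which bounds a difference in either direction but does not show equality. Its sign turned with no scaling (-0.47), spike-in scaling (-0.55) and the deposited table (-0.16), settings under which the median of all genes also moved to -0.45, -0.52 and -0.13.

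Among the F-box ligases, Fbxo32 encodes atrogin-1, which targets the translation factor eIF3f and the regulator MyoD. Its log2 signal was 2.91, 2.97 and 3.40 in the exercise mice and 3.36, 3.50 and 3.58 in the sedentary mice. Exercise mouse 3 fell inside the sedentary range, and the other exercise mice lay below it. The exercise mean was 0.765 times the sedentary mean (log2 fold change -0.39, SE 0.15, 95% confidence interval -0.76 to -0.02), with an adjusted p of 0.124 in limma and an exact two-sided permutation p of 0.2 over the arrays. The same array of exercise mouse 3 had the highest summed adipocyte markers of its group, at 99.9 times the 75th percentile against 24.4 and 37.3 for exercise mice 1 and 2, and the sedentary arrays ranged from 71.1 to 101. The part of these markers in the Fbxo32 value was not tested.

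Fbxo30, also called MUSA1, is a ligase held down by BMP signalling and induced after denervation. It measured -1.35, -1.32 and -1.22 in the exercise mice and -1.01, -0.74 and -0.61 in the sedentary mice, with no overlap. Fbxo30 fell to 0.703 times the sedentary level (log2 fold change -0.51, SE 0.12, adjusted p = 0.0410, limma). The sedentary array nearest to exercise was that of mouse 1, and against it alone the difference was -0.28.

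Fbxo40 encodes a muscle-specific F-box protein known to target the insulin receptor substrate IRS1. Its log2 signal was 2.12, 2.15 and 2.28 with exercise and 1.66, 1.23 and 1.39 without, again with no overlap and with sedentary mouse 1 highest of its group. Fbxo40 rose 1.69-fold (log2 fold change 0.76, SE 0.13, adjusted p = 0.0241, limma), the largest log2 fold change of the 9 genes, and was 0.52 higher than sedentary mouse 1 alone. A second, dimmer Fbxo40 probe gave 0.43 (SE 0.20, adjusted p = 0.169 over all probes, limma), and on it sedentary mouse 1 at -0.95 lay within the exercise values of -1.04 to -0.72. The substrate gene Irs1 itself was 0.82 higher without passing the test (adjusted p = 0.0725, limma), a gene singled out after its value was seen.

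Of the FoxO factors, Foxo1, Foxo3 and Foxo4 had lower mean levels in the exercise group and Foxo6, described with the FoxO regulators, had a higher one, none past the test. Foxo1, the most studied inducer of atrophy genes after fasting, measured 2.25, 2.52 and 2.37 in the exercise mice and 2.86, 2.69 and 2.46 in the sedentary mice, where exercise mouse 2 exceeded sedentary mouse 3. Its log2 fold change was -0.29 (SE 0.13, 95% confidence interval -0.62 to 0.03, adjusted p = 0.171, limma). The second Foxo1 probe did not overlap between groups, at 1.31 to 1.44 against 1.62 to 1.90, and gave -0.37 (SE 0.10, adjusted p = 0.0594 over all probes, limma).

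Foxo3, the factor known to act directly on the Fbxo32 promoter, measured -2.57, -2.41 and -2.49 with exercise and -1.79, -1.90 and -2.38 without. The groups did not overlap, but sedentary mouse 3 at -2.38 lay next to exercise mouse 2 at -2.41. Its log2 fold change was -0.47 (SE 0.17, 95% confidence interval -0.87 to -0.06, adjusted p = 0.0973, limma). A second Foxo3 probe, well above background on 5 arrays, gave -0.08 (SE 0.25) with overlapping groups.

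Foxo4, a family member on the X chromosome, measured -2.57, -3.06 and -2.98 in the exercise mice and -2.54, -2.82 and -2.97 in the sedentary mice. The groups overlapped over most of their range, and the log2 fold change was -0.09 (SE 0.17, 95% confidence interval -0.52 to 0.33, adjusted p = 0.728, limma), with a positive sign under quantile normalization (0.01) and normexp background correction (0.14). Over the 9 genes, groups separated with exercise higher in 3 and lower in 2, beside 25.0% and 18.2% of all genes tested, which is near the background.

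Trim63 and Fbxo32, the pair that wasting muscle is known to raise together, differed more from each other on the exercise arrays than on the sedentary arrays. This comparison needs no scaling between arrays, and it was chosen after the values were seen. The log2 signal of Trim63 minus that of Fbxo32 was 2.24, 2.41 and 2.07 in the exercise mice and 1.66, 1.12 and 1.19 in the sedentary mice, so every exercise array was above every sedentary array. The difference widened by 0.92 on the log2 scale, a 1.89-fold shift in the ratio, with an exact two-sided permutation p of 0.1, the smallest that 3 against 3 allows (0.267 after Benjamini-Hochberg adjustment over the 8 genes set against Fbxo32). Trim54 minus Fbxo32 widened by 1.06 and Fbxo40 minus Fbxo32 by 1.14, both without overlap. Of all other genes, 39.1% were likewise separated upwards from the sedentary arrays when set against Fbxo32, so such a separation is common against this reference. Trim55, Fbxo30, Foxo1, Foxo3 and Foxo4 overlapped between groups when set against Fbxo32, with changes from -0.12 to 0.39. Of the 22 alternative settings, 11 changed this value, and over those it ranged from 0.58 with strip as a block to 1.09 without sedentary mouse 1. A shift of a whole array cancels in it, which covers 4 of the settings that left it unchanged. The others of these kept the same probes and group means for both genes.

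**Figure D3:**
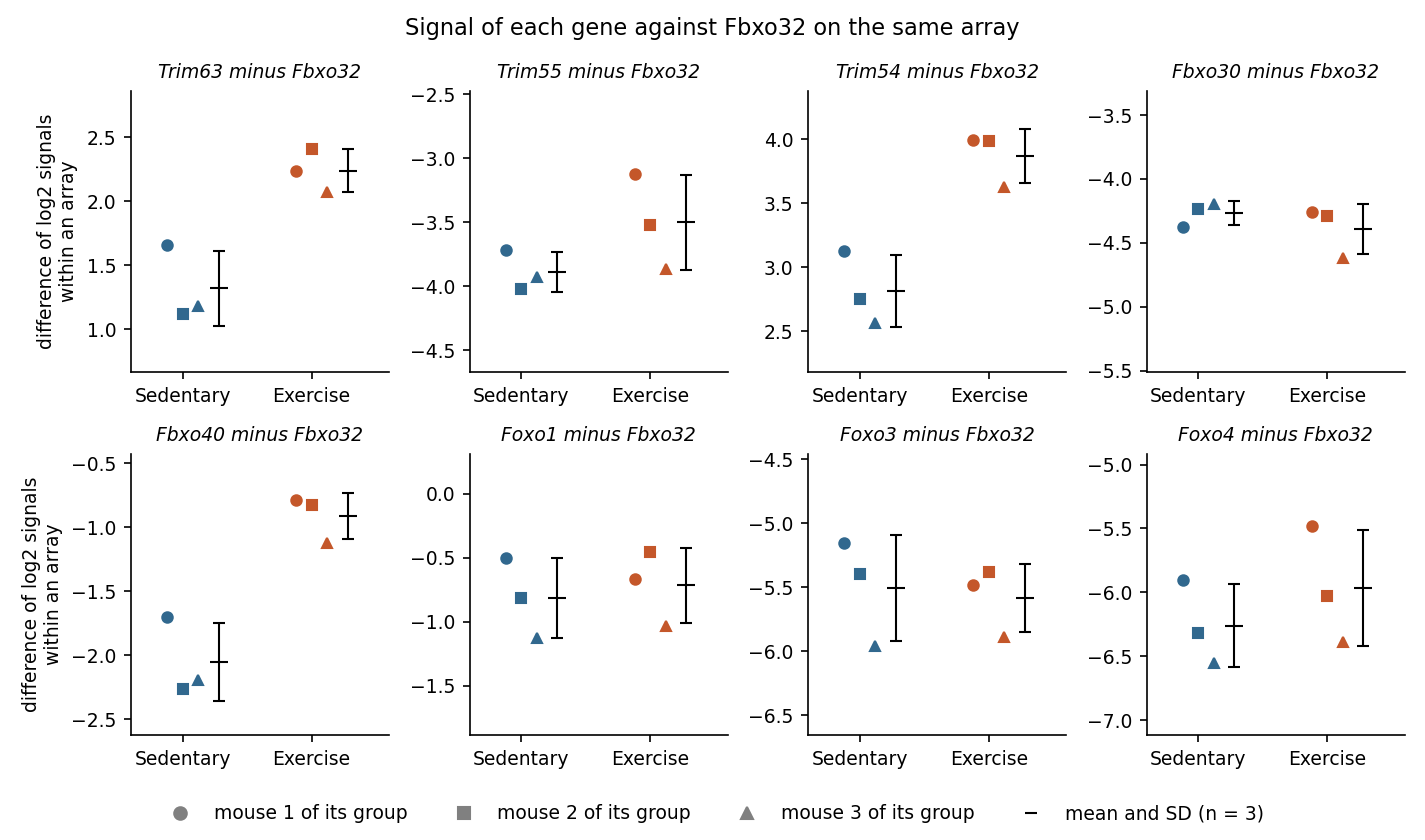
Log2 signal of each gene minus the log2 signal of Fbxo32 on the same array, by group, with mean and SD; every panel spans the same log2 range. Exercise lies above sedentary without overlap for Trim63, Trim54 and Fbxo40, and the groups overlap for the other 5 genes.

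With no scaling, spike-in scaling and the deposited table, all 9 log2 fold changes shifted down along with the median of all genes. Such shifts move every gene alike and leave the position of a gene against that median unchanged. Where no scaling was applied, the median of all genes was -0.45 and Trim63 was at 0.06, Trim54 at 0.20 and Fbxo40 at 0.28, whereas Fbxo32 was at -0.86 and Fbxo30 at -0.98.

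**Figure D4:**
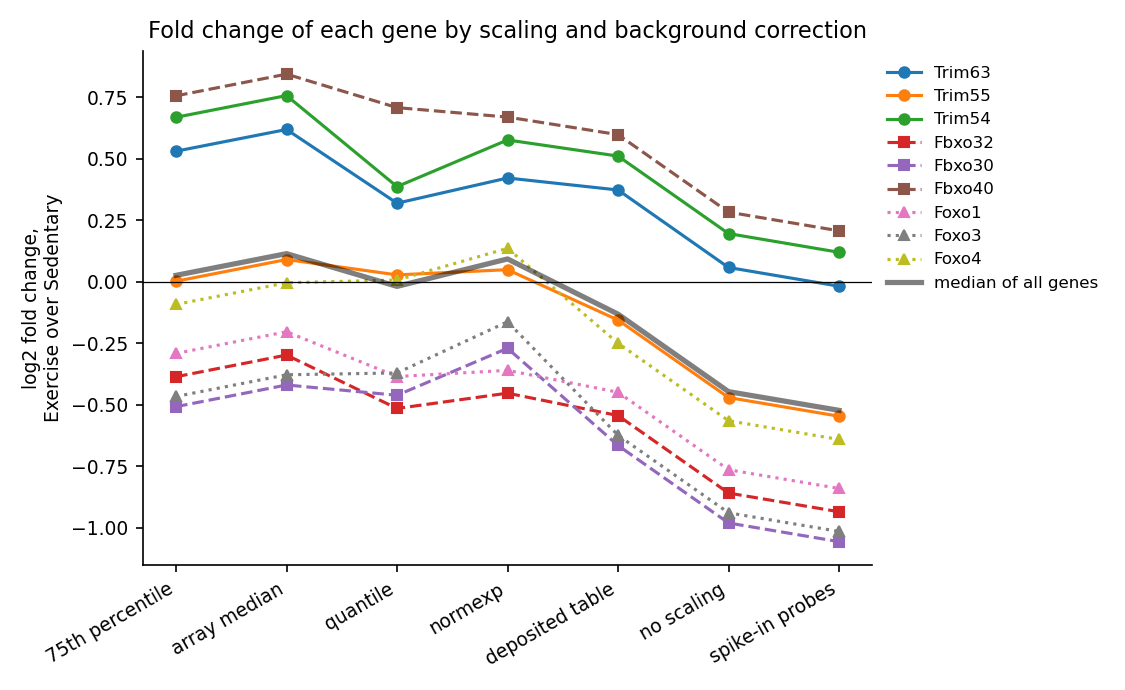
Log2 fold change of each gene, exercise over sedentary, under 7 settings of scaling or background correction, with the median of all genes tested as the thick grey line. Only quantile normalization and normexp can change the position of a gene against that median, and under both Fbxo40, Trim54 and Trim63 lie above it and Fbxo32, Fbxo30, Foxo1 and Foxo3 below it.

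The profiles over the 6 arrays were also compared with each other, as a description of arrays that share the same 2 groups. After centring each gene on its mean, Trim54 and Fbxo40 were the closest pair of the 9 genes, with a root mean square difference of 0.09, and Trim63 and Trim54 followed at 0.12. The pair farthest apart was Fbxo30 and Fbxo40, at 0.67. Among 15744 other named genes, the closest to Trim63 were 2900040C04Rik, 4921529L05Rik and Hoxb2, each at 0.06, and the closest to Fbxo32 were Sik2, Nectin2 and Rfwd3, at 0.05 each.

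Around these ligases, several of the enzymes that hand ubiquitin to them were higher with exercise after scaling. Of 16 E2 enzymes and components of the cullin complex, 8 rose and 1 fell, beside 11.5% and 6.12% of all genes. Their median log2 fold change was 0.23. With no scaling, 1 of the 16 was called higher and 3 lower, where 617 of all genes were called higher and 11280 lower. Ube2d1, an E2 that works with MuRF1 in vitro, rose by 0.84 (SE 0.13, adjusted p = 0.0234, limma). Ube2b, an E2 known from wasting muscle, rose by 0.63, and Ube2e1 by 0.47. The gene that fell, Cand1, which exchanges the F-box adaptors on the cullin, was at -0.60 and is named after its value was seen. Of 17 other muscle E3 ligases, 3 rose and 1 fell, near the 11.5% and 6.12% of all genes, with a median of 0.04. Those that rose were Asb2 (0.77), a cullin adaptor that targets filamins, Wwp1 (0.71), a HECT ligase, and Mul1 (0.36), a mitochondrial ligase. The ligase-list gene that fell, Klhl40, a cullin adaptor of the thin filament named after its value was seen, was at -0.50.

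Proteasome subunit genes lay in a narrow band. All 31 subunit genes tested had positive log2 fold changes, between 0.00 and 0.38 with a median of 0.15. The share of positive values among all genes was not taken. By the test 4 of the 31 rose, near the 11.5% of all genes called higher. Groups did not overlap with exercise higher in 18 of the 31 and lower in 0, beside 25.0% and 18.2% of all genes. With no scaling, 0 were called higher and 10 lower. Psmb6, a catalytic-core subunit, rose by 0.38 (7.30, 7.33 and 7.32 against 6.94, 6.98 and 6.90), Psma6 by 0.36 and Psmd8 by 0.34. The last of the 4 that rose by the test, Psmb7, was also at 0.38 and is named after its value was seen. Of 10 deubiquitinases, which remove ubiquitin, limma called 0 in either direction, as did the methods' t-test after adjustment, and 1 was higher and 2 lower at an unadjusted p under 0.05 in limma. The lowest adjusted p among them belonged to Cyld (-0.44, adjusted p = 0.0644), Usp19 (-0.32) and Usp13 (0.38).

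Genes upstream and downstream of FoxO showed no common direction. Of 17 FoxO regulators, limma called 0, as did the methods' t-test after adjustment, and 4 were higher and 1 lower at an unadjusted p under 0.05 in limma. Stk4, a kinase that sends FoxO to the nucleus, was at -0.30 (adjusted p = 0.0746), the coactivator Crebbp at 0.29, with its probes differing in sign, and Foxo6 at 0.39. Of 27 FoxO target genes, 3 rose and 0 fell by limma, near the 11.5% of all genes called higher, with a median of 0.02, and 4 were lower at an unadjusted p under 0.05. The 3 were Sod2 (0.79), a mitochondrial superoxide dismutase, the growth inhibitor myostatin (Mstn, 0.64), and the mitophagy kinase Pink1 (0.30). The largest change of this list was downward, in Gadd45a (-1.01), which just missed the threshold (adjusted p = 0.0506, limma). It is named after its value was seen.

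Known substrates of the ligases had the highest median of the 8 pathway lists. Of 17 substrate genes, 7 rose and 0 fell, beside 11.5% and 6.12% of all genes, with a median log2 fold change of 0.42. With no scaling, 4 were called higher and 0 lower. On this list, 4 of the 17 genes are also muscle fibre markers, a list whose median was 0.79. Ckm, the muscle creatine kinase that MuRF1 binds, rose 2.82-fold (log2 fold change 1.50, SE 0.22, adjusted p = 0.0234, limma). Mylpf, the fast myosin regulatory light chain, rose by 1.09 and Tnnt3, fast troponin T, by 0.81. Of 12 genes related to denervation, 4 fell and 2 were called higher, beside 6.12% and 11.5% of all genes. The list mixes regulators of the ligases with the receptor subunits Chrna1 and Chrng, and the study counts Chrng as a marker of denervation. Of the 2 called higher, Dach2 passed the filter on dim probes only through the exercise arrays, so that its call follows from that filter. Chrna1, a receptor subunit of the neuromuscular junction, fell by 1.27 on the log2 scale, from 4.67, 5.48 and 5.65 in the sedentary mice to 4.13, 4.04 and 3.84 in the exercise mice. Nos1, the neuronal nitric oxide synthase of the sarcolemma, rose by 0.68, and Dach2, a repressor of myogenin, was at least 2.72-fold higher, a bound because all 3 sedentary arrays left it below the detection mark, set against the dimmest detected signal there. The other genes that fell, named after their values were seen, were Chrng (-3.62), Runx1 (-1.29) and Hdac4 (-0.63), while myogenin (Myog), known to activate Trim63 and Fbxo32 after denervation, was at -1.18 (adjusted p = 0.0603, limma). With strip as a block, or with any single array other than that of sedentary mouse 1 left out, 0 genes of the 8 pathway lists were called.

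**Figure D5:**
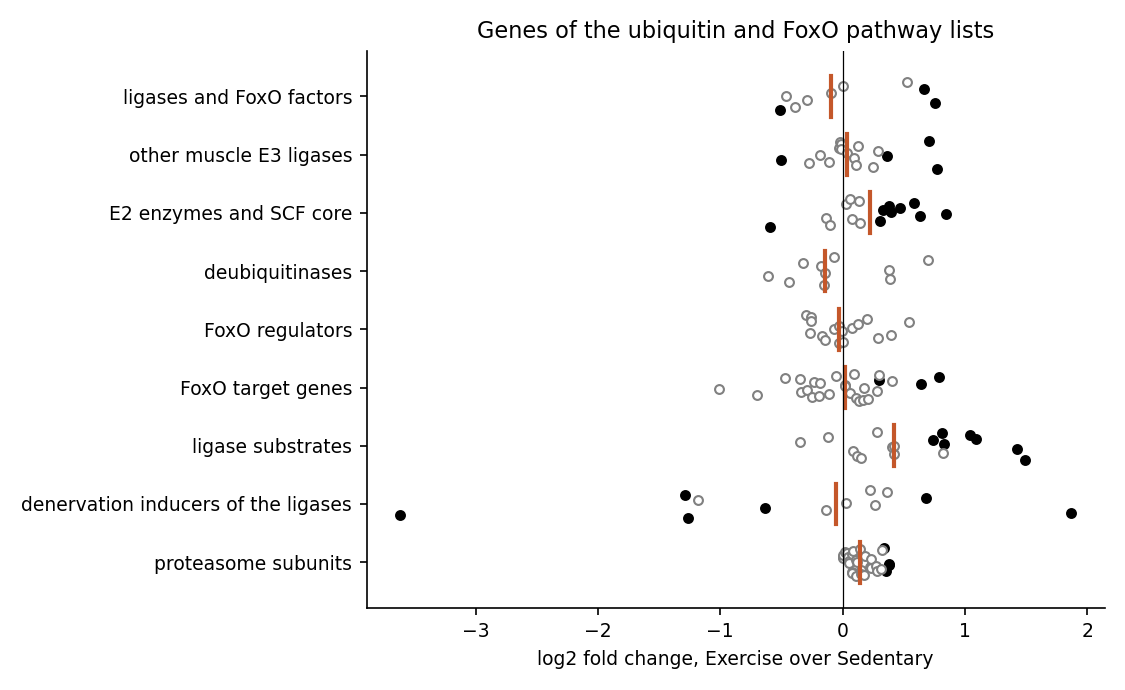
Log2 fold change, exercise over sedentary, of every tested gene in the ligase and FoxO set and in each pathway list; filled points passed the adjusted threshold in limma and the vertical mark is the list median. The 31 proteasome subunits lie between 0.00 and 0.38, substrates reach 1.50, and the denervation list reaches furthest down. The highest point of that list, Dach2 (1.87), passed the filter on dim probes only through the exercise arrays.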

How the data were processed

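Total RNA from quadriceps was labelled with Cy3 and hybridised to 1-colour Agilent mouse arrays, 1 array per mouse, on 1 slide in 1 scan. The authors deposited scanner files of Agilent Feature Extraction 12.1.0.3 with background-subtracted, spatially detrended processed signal intensities, and a table of processed values whose scaling is not given in the sources used here. Samples were grouped by their titles. From the deposited intensities, outlier spots were left out, log2 values were averaged per probe, and the 75th percentile of each array was subtracted. A probe was kept where at least 3 arrays had it well above background, and the brightest probe stood for a gene. Exercise was compared with sedentary by limma 3.58.1 (R 4.3.3) without covariates, two-sided, with Benjamini-Hochberg adjustment over 25005 genes, 9260 of them without a gene name. The number of arrays limits the precision. In simulated data for this comparison with 200 of 25005 genes changed by a log2 value of 2, 84% were recovered and 10 unchanged genes were called. The largest log2 fold change among the ligase and FoxO genes was 0.76, for Fbxo40. Recovery of changes of that size was not simulated, so the 84% does not apply to them.

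Probes were named through their transcript accessions and RefSeq, of which 34566 of 56605 matched. The genes, the gene lists and the tests were chosen with earlier results of these data known. Named genes were the 9 members, the 3 genes with the lowest adjusted p in each list, and the 3 named genes with the profile closest to Trim63 and to Fbxo32. Cell type marker lists covered muscle fibre, endothelial, macrophage, fibroblast, adipocyte, Schwann, satellite, smooth muscle and red blood cells. No spot was saturated (0 on every array). Alternatives were other scalings, background corrections, filters, probe rules, covariates, moderation, the methods' t-test and leaving out each array.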

Additional observations from a re-analysis of the deposited data

How the results depend on the processing

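Nothing in the comparison of the 9 genes passed the threshold under every alternative. The numbers called higher and lower (2 and 1) became 1 and 0 with quantile normalization, 2 and 0 with the array median subtracted, 0 and 6 with no scaling, 0 and 6 with spike-in scaling, 2 and 2 with the deposited table, 3 and 3 with normexp, and 3 and 2 with array weights. They were 3 and 1, with Trim63 added, where probes had to be well above background on all arrays (adjusted p = 0.0366, limma) and with trend and robust moderation (0.0183). With the mean of the probes they stayed 2 and 1, but Fbxo40 was lost (0.59, adjusted p = 0.0544) and Trim63 gained (adjusted p = 0.04997, limma). They were 0 and 0 with strip as a block and with the methods' t-test after adjustment, against 3 and 1 unadjusted. The count past the fold minimum (0) changed only with spike-in scaling, to 2. The cause of these changes was not tested, except that no scaling and spike-in scaling also moved the median of all genes to -0.45 and -0.52.

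Leaving out 1 array gave 0 to 3 genes called higher and 0 to 1 lower. Calls were made only without sedentary mouse 1 (3 and 1, with Trim63 added at 0.64, adjusted p = 0.0299, limma), and leaving out any other array left 0 of the 9. The same held for all genes, where 2868 higher and 1530 lower became 3476 and 2060 without sedentary mouse 1 and at most 0 and 1 without any other array. Over these 6 fits Trim54 ranged from 0.60 to 0.76 and Fbxo40 from 0.66 to 0.87, and Fbxo30 from -0.62 to -0.42.

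With the replicate number as a block, 0 genes were called higher and 0 lower among the 9 and among all genes, and the adjusted p in limma was 0.0617 for Fbxo40, 0.0641 for Trim54 and 0.0666 for Fbxo30. Deviations of same-numbered mice correlated at 0.02, 0.08 and 0.04, and not every array correlated best with its own number. These values give no sign of a pairing, but with 3 mice per group they cannot exclude one.

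The sign of Trim55 turned to -0.47 with no scaling (adjusted p = 0.0387), -0.55 with spike-in scaling (adjusted p = 0.0480), -0.16 with the deposited table and -0.052 with strip as a block (limma), and leaving out 1 array gave -0.097 to 0.073, negative without exercise mouse 1 or sedentary mouse 2. Foxo4 turned to 0.0068 with quantile normalization and 0.14 with normexp, and leaving out 1 array gave -0.24 to 0.025, positive without exercise mouse 2 or sedentary mouse 1. Trim63 turned to -0.018 with spike-in scaling.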
